A study of Homo sapiens with 5 samples.

Results

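The 40 genes described here are among the longest in the human genome. Most encode adhesion molecules, receptors and scaffolds of neurons, and several span common fragile sites, chromosome regions that break or carry deletions when DNA replication is slowed. They were taken by name from a list of such genes, drawn up when earlier results of these data were known. All 40 appear in the gene symbol column of both annotated peak lists of C4-2B cells, out of 18343 genes for which these lists give gene limits. The question asked of each gene was how many peaks of H2A-K130ac, acetylation of lysine 130 in the tail of histone H2A, lay between its outermost transcript limits.

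The study followed this mark in prostate cancer cells whose androgen supply was cut. C4-2B is an established cell line that the study treats as castration-resistant prostate cancer, although the sample labels name breast cancer. Chromatin was precipitated with an H2A-K130ac antibody and sequenced (ChIP-seq) from C4-2B cells given either abiraterone, which blocks CYP17A1 and with it androgen synthesis, or Romidepsin, which blocks histone deacetylases. There was 1 sample per treatment and no vehicle-treated C4-2B sample, so no test between treatments was possible. The study states that samples were run in duplicate, but the peak lists do not separate duplicates. Every interval given covers counting error only. The Romidepsin dose in the labels, 0.5 µM, is stated for VCaP cells, another prostate cancer line whose 3 samples were not used here, and the doses and times of the C4-2B cells that were sequenced are not given in the sources used here, which state them for other C4-2B experiments. Peak lists hold no expression values, so the identity of the cells could not be checked against marker genes.

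A gene of this length is almost all intron. RNA polymerase needs many hours to cross it, and in cells outside the nervous system many such genes are silent and lie in late-replicating, gene-poor chromatin. FHIT and WWOX are tumour suppressor genes whose introns cover the best known fragile sites. LRP1B, a lipoprotein receptor of the LDL receptor family, MACROD2, an ADP-ribose hydrolase, and IMMP2L, a subunit of the mitochondrial inner membrane peptidase, lie in such sites too. Histone acetylation is in general found at active promoters and enhancers.

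The genes measured 643 to 2305 kb (median 1233 kb), together 54.9 Mb on 14 chromosomes, and none overlapped another. The abiraterone list held 67807 peaks and the Romidepsin list 91399, and neither gives read depth. Intron-labelled peaks had a density of 23.3 per Mb in the abiraterone list (95% Poisson interval, 23.0 to 23.6) and 30.04 per Mb in the Romidepsin list (29.7 to 30.4), taken over the 1153 Mb that all gene limits cover. These are the intronic densities against which the genes were set.

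Some of the genes carried a peak at a start, and sequences from before the start are printed below for some of these. Promoter labels (within 1 kb of a start) went to 0.651% of the abiraterone peaks and 0.401% of the Romidepsin peaks inside the genes, against 3.17% and 3.52% of the whole lists. The whole lists also take in peaks at shorter genes, where starts are closer together, so this contrast follows in part from the choice of genes. A peak within 1 kb of any annotated start site was found at 6 genes in each list. Under abiraterone these were DAB1 and CTNNA2 with 2 peaks each and PCDH15, DLG2, OPCML and NRXN3 with 1 each, and all 8 peaks lay at starts of shorter, internal transcripts. Under Romidepsin 4 of the 6 lay at the outermost start of the gene, at FHIT, MAGI2, THSD7B and DAB1, and the others lay at inner starts of CSMD1 and LRRC4C. The FHIT peak stood out by strength, with a fold of 6.69 over the control and a −log10 q of 4.16, rank 113 of the Romidepsin list by fold. It lay at chr3:61237624-61237843 in hg19, 491 bases upstream of the start. The MAGI2 peak (chr7:79082390-79082801, fold 2.58) lay 89 bases inside the gene, the THSD7B peak (chr2:137522564-137522763, fold 3.48) lay 352 bases before it, and the DAB1 peak (chr1:58717175-58717347, fold 2.61) lay 964 bases before it. No abiraterone peak overlapped any of these 4.

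The upstream sequences of FHIT, MAGI2 and THSD7B are shown because these genes had a Romidepsin peak at their outermost start and a RefSeq gene length close to that of the peak lists (1504 against 1502 kb for FHIT, and 1437 and 912 kb in both for the others). Each is the 250 bases before the RefSeq start, 5′ to 3′ on the strand of the gene, in the build GRCh38.p14, with CpG dinucleotides in capitals. The positions are chr3:61251453-61251702 (minus strand) for FHIT, chr7:79453668-79453917 (minus strand) for MAGI2 and chr2:136765295-136765544 (plus strand) for THSD7B.
FHIT: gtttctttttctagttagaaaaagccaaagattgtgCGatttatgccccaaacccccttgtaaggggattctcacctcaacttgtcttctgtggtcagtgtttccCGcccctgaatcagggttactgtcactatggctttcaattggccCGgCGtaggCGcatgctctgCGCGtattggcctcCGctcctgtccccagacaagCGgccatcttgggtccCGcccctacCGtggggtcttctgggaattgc
MAGI2: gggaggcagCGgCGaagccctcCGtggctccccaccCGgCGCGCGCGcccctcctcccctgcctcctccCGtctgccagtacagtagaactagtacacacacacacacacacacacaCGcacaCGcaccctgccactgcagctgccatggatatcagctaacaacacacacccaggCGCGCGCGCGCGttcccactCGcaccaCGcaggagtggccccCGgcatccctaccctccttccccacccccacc
THSD7B: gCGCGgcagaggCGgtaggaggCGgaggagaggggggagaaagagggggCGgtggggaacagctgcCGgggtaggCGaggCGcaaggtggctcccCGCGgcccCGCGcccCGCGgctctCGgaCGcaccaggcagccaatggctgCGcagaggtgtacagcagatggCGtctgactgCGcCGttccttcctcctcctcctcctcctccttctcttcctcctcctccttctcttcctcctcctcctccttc
The stretch of FHIT held 11 CpG dinucleotides, the median of all 35116 promoter stretches in the RefSeq table, and 50.3% of them held at least as many. MAGI2 and THSD7B held 20 each, a number reached by 32.5% of the table, with GC contents of 68.0% and 69.2% against 54.0% for FHIT. Over the promoters of the 31 genes found in the table the median was 11.5. The peaks have hg19 positions, so they were not placed on these stretches, and their own bases were not read because no hg19 genome was used. By the starts in the peak lists, the peaks lay 491 (FHIT) and 352 (THSD7B) bases before the start and 89 bases inside it (MAGI2). None thus reached the 250 bases before that start, and the stretches are not read as peak sequence.

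Inside the genes 1383 abiraterone peaks and 1496 Romidepsin peaks were counted, 2.04% and 1.64% of the lists. The pooled density was 25.2 per Mb under abiraterone (23.9 to 26.6), or 1.08 times the intronic density of that list. Under Romidepsin it was 27.3 per Mb (25.9 to 28.7), or 0.908 times the intronic density. These counts took peaks of any label, whereas the intronic densities took intron-labelled peaks alone. With peaks of any label, all gene limits together held 26.7 per Mb under abiraterone and 36.0 under Romidepsin, more than the 40 genes in both lists. The other 246 genes of at least 500 kb gave 26.1 and 30.7 per Mb, 1.12 and 1.02 times. Over all genes with limits the Romidepsin density was 42.3 per Mb in genes under 100 kb, 34.5 in those of 100 to 500 kb and 29.9 in those of at least 500 kb. The abiraterone densities of the same classes were 27.5, 26.7 and 25.9. Limits were known only for genes nearest to a peak of either list, so genes without such a peak were left out. This can raise the density of the shorter classes, and no conclusion on length is drawn.

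**Figure D1:**
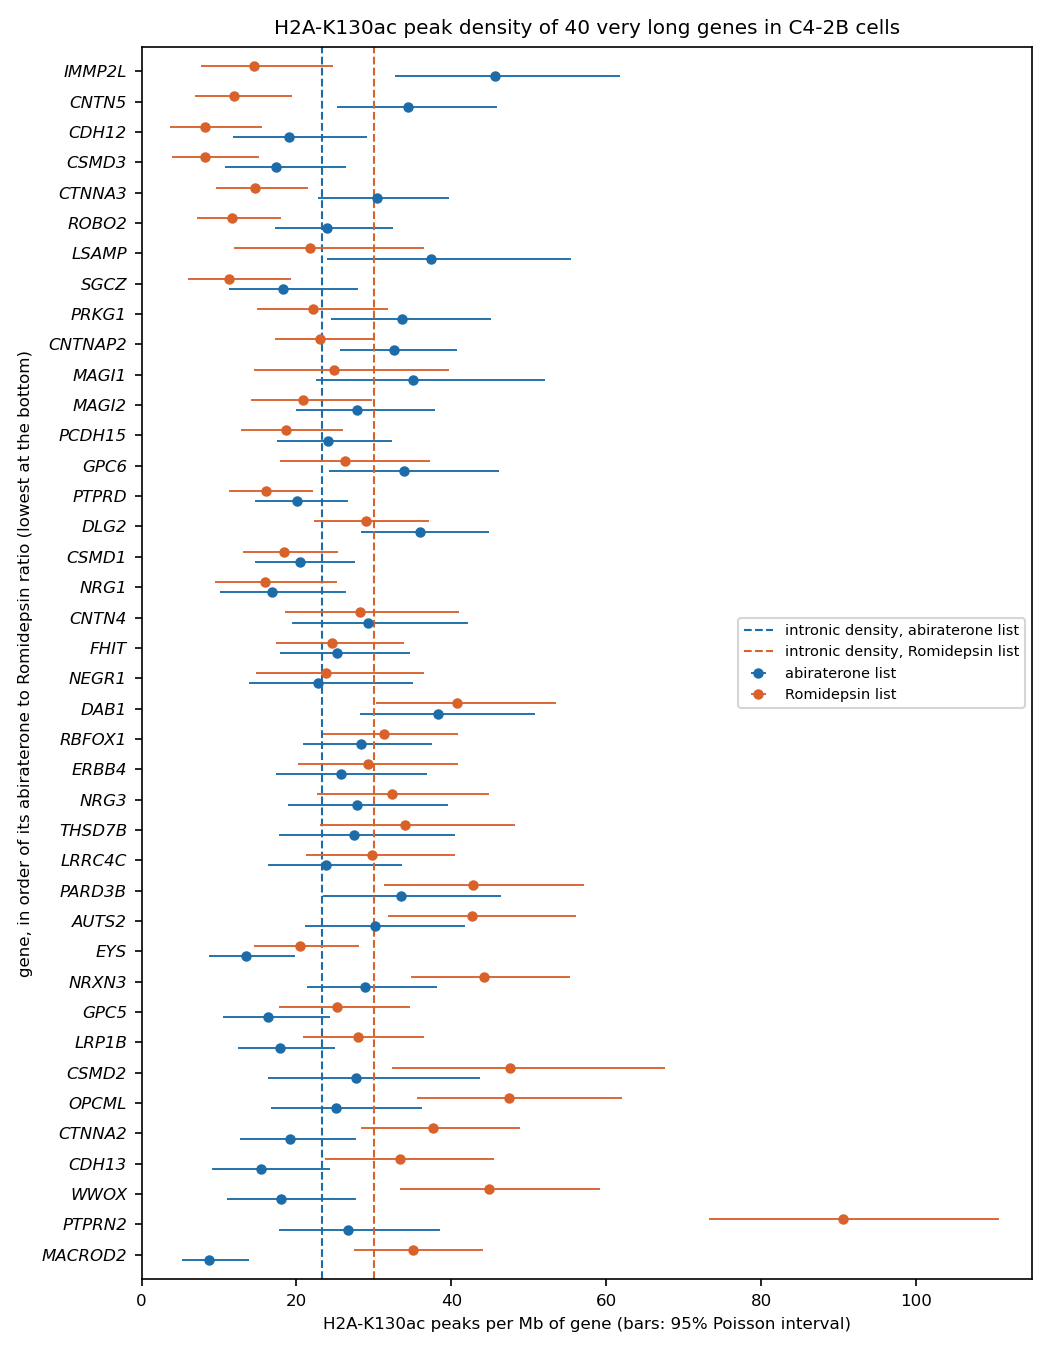
Density of H2A-K130ac peaks inside each of the 40 genes (x axis, peaks per Mb of gene) for the abiraterone list (blue) and the Romidepsin list (orange), with genes in order of their abiraterone to Romidepsin ratio. Points are single samples, bars are 95% Poisson intervals, and dashed lines are the intronic densities of 23.3 and 30.04 per Mb. PTPRN2 under Romidepsin, at 90.6 per Mb, lies farthest to the right.

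The genes differed more among themselves than the pooled values show. Under abiraterone they ran from 8.75 per Mb in MACROD2 to 45.6 in IMMP2L, a 5.21-fold spread, with a median of 26.2 per Mb. Under Romidepsin they ran from 8.16 per Mb in CDH12 to 90.6 in PTPRN2, an 11.1-fold spread, with a median of 25.7. In the abiraterone list 26 of 40 genes lay above the intronic density, against 58.4% of all 286 genes of at least 500 kb, and in the Romidepsin list 14 of 40 did, against 43.0%. The interval lay wholly above it for 9 genes (22.5%) under abiraterone, against 21.0% of the 286. These 9 were CNTN5, CNTNAP2, DAB1, DLG2, GPC6, IMMP2L, LSAMP, PARD3B and PRKG1. It lay wholly below for EYS and MACROD2, 5.00% against 7.69%. Under Romidepsin 8 of 40 genes lay wholly above, against 18.2% of long genes, namely AUTS2, CSMD2, DAB1, NRXN3, OPCML, PARD3B, PTPRN2 and WWOX. Wholly below lay 13 genes (32.5%), against 19.9% of long genes. DAB1 and PARD3B were the genes above in both lists, and EYS the gene below in both.

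Adhesion molecules of synapses and axons made up 9 of the genes, with 28.6 peaks per Mb under abiraterone and 26.6 under Romidepsin. CNTN5, a contactin of the immunoglobulin superfamily, held 46 abiraterone peaks and 16 Romidepsin peaks, 34.4 and 11.96 per Mb. LSAMP, a GPI-anchored adhesion molecule of limbic neurons, held 24 and 14 peaks in 643 kb, 37.3 and 21.8 per Mb. ROBO2, a receptor for the axon guidance cue SLIT, held 41 and 20 peaks. All of these had the higher density in the abiraterone list before any scaling, although that list is the shorter. CNTNAP2, a neurexin-like protein of the axon and at 2305 kb the longest of the 40, had 75 and 53 peaks. In OPCML, an opioid-binding cell adhesion molecule and candidate tumour suppressor, the order was opposite, with 28 abiraterone and 53 Romidepsin peaks, and 47.4 per Mb under Romidepsin. NRXN3, a presynaptic neurexin, had 49 and 75 peaks. The remaining members of this class differed less between the lists, with 28 and 27 peaks in CNTN4, another contactin, 32 and 40 in LRRC4C, a netrin-G ligand of synapses, and 20 and 21 in NEGR1, a neuronal growth regulator of the LSAMP family.

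Cadherins and catenins join neighbouring cells. CTNNA3, an alpha catenin of heart and testis, held 54 abiraterone and 26 Romidepsin peaks, 30.4 and 14.6 per Mb. CDH12, a cadherin of the brain, held 21 and 9. The other alpha catenin of the class, CTNNA2, had the opposite order with 28 and 55 peaks, as did CDH13, a cadherin without a cytoplasmic tail, with 18 and 39. CDH13 had one of the lowest abiraterone densities, 15.4 per Mb. PCDH15, a protocadherin of hair cell tip links, had 44 and 34 peaks. The 2 alpha catenin genes thus differed in the list that held more of their peaks.

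The 3 CUB and sushi domain genes, large membrane proteins that regulate complement and synapses, also differed from each other. CSMD2 held 18 abiraterone and 31 Romidepsin peaks, 27.6 and 47.6 per Mb, the latter second to PTPRN2. CSMD3 held 21 and 10 peaks, and its 8.24 per Mb under Romidepsin was next to the lowest value. CSMD1 held 42 and 38 peaks.

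The receptor phosphatase PTPRN2, a protein of secretory granules in neuroendocrine cells, gave the largest count of any of the genes in either list. It held 95 Romidepsin peaks in 1049 kb, 90.6 per Mb (73.3 to 111) or 3.02 times the intronic density, and 28 abiraterone peaks, 26.7 per Mb (17.7 to 38.6) or 1.15 times. The density was also high beside PTPRN2, near the end of chromosome 7, at 53.0 Romidepsin and 36.9 abiraterone peaks per Mb of flank. PTPRD, a receptor phosphatase that organises synapses and is deleted in several cancers, had 46 and 37 peaks in 2298 kb, below both intronic densities.

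Membrane scaffolds had the highest pooled abiraterone density of the classes, 33.2 per Mb (28.5 to 38.4), and 29.1 under Romidepsin. DLG2, a postsynaptic density scaffold, held 78 abiraterone peaks, the largest abiraterone count, and 63 Romidepsin peaks. MAGI1, a scaffold of tight junctions, held 24 and 17 (35.1 and 24.8 per Mb), its synaptic relative MAGI2 held 40 and 30, and the polarity protein gene PARD3B held 36 and 46. All 4 lay above the intronic density under abiraterone, and PARD3B alone of them lay above it under Romidepsin.

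Among the signalling genes DAB1, an adaptor of the reelin pathway, had 48 abiraterone and 51 Romidepsin peaks, 38.3 and 40.7 per Mb. PRKG1, the cGMP-dependent protein kinase, had 44 and 29. ERBB4, a receptor of neuregulins, had 30 and 34 peaks, and its ligands NRG3 and NRG1 had 31 and 36 and 19 and 18. NRG1 was among the sparsest genes under abiraterone with 16.9 per Mb. The glypicans, heparan sulfate proteoglycans of the cell surface, had 24 abiraterone and 37 Romidepsin peaks in GPC5 and 40 and 31 in GPC6. The abiraterone density of GPC5, 16.3 per Mb, was below that of GPC6, 33.9 per Mb.

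The 5 genes grouped here as fragile site and tumour suppressor loci ran from 14.5 to 44.9 per Mb under Romidepsin. Single genes of this group, IMMP2L and MACROD2, stood at the ends of the abiraterone densities and of the ratios between the lists. IMMP2L held 41 abiraterone peaks against 13 Romidepsin peaks in 899 kb. Its 45.6 per Mb (32.7 to 61.8) was the highest abiraterone density, and its 14.5 per Mb (7.70 to 24.7) was below the intronic density of the Romidepsin list. MACROD2 was the reverse, with 18 abiraterone peaks in 2058 kb, the lowest abiraterone density, and 72 Romidepsin peaks, 35.0 per Mb. WWOX held 20 and 50 peaks, 18.0 and 44.9 per Mb. LRP1B held 34 and 53. FHIT was close to even, with 38 and 37 peaks, 25.3 and 24.6 per Mb.

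Of the remaining genes, EYS, a protein of photoreceptors, had low density in both lists with 25 and 38 peaks, 13.4 and 20.4 per Mb. SGCZ, a sarcoglycan, had 21 and 13 peaks and 11.3 per Mb under Romidepsin. AUTS2, a regulator of transcription in the developing brain, had 36 and 51, the splicing factor gene RBFOX1 had 48 and 53, and THSD7B, which encodes a membrane protein with thrombospondin repeats, had 25 and 31.

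To compare the lists gene by gene, each count was divided by the size of its list. The scaled abiraterone to Romidepsin ratio was above 1 for 28 genes and below 1 for 12, with a median of 1.33. Among the 707 other genes with at least 20 peaks it was above 1 for 346 and below 1 for 361, with a median of 0.985. Among the 233 of these that were at least 500 kb long it was above 1 for 125 and below 1 for 108, with a median of 1.08. The ratio was at least 2-fold in favour of abiraterone for 9 of the 40 (22.5%), against 14.7% of all 747 genes with at least 20 peaks and 20.2% of the other long genes among them. It was at least 2-fold in favour of Romidepsin for 2 (5.00%), against 12.7% of the 747 and 6.44% of the other long genes. Set beside the other genes of at least 500 kb, which include genes shorter than any of the 40, both 2-fold shares were near the background.

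The ratio was highest in IMMP2L, at 4.25 (95% binomial interval, 2.23 to 8.65). It was 3.88 in CNTN5 (2.15 to 7.33), 3.15 in CDH12 (1.38 to 7.80), 2.83 in CSMD3 (1.28 to 6.73) and 2.80 in CTNNA3 (1.72 to 4.66). ROBO2, LSAMP, SGCZ and PRKG1 followed with 2.76, 2.31, 2.18 and 2.05, and CNTNAP2 and MAGI1 lay just under the 2-fold line with 1.91 and 1.90. At the other end the scaled density was 2.97-fold higher in the Romidepsin list for MACROD2 (1.75 to 5.29), 2.52-fold for PTPRN2 (1.64 to 3.99) and 1.85-fold for WWOX (1.08 to 3.29). CDH13 and CTNNA2 came next, with 1.61-fold and 1.46-fold and intervals that included 1. The interval excluded 1 for 15 genes on the abiraterone side and for 3 on the Romidepsin side, MACROD2, PTPRN2 and WWOX. These are 37.5% and 7.50% of the 40, against 13.3% and 7.50% of the 747 genes and 19.3% and 6.87% of the other long genes, and the intervals are narrower for genes with more peaks. Counting intervals of neighbours in this order overlapped, and those of its ends did not.

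The stretches beside the genes moved with the genes. In the 1 Mb on either side of each gene the scaled ratio lay on the same side of 1 as inside the gene for 31 of 40, including all 9 genes past 2-fold on the abiraterone side and both on the Romidepsin side. Across the 40 genes the ratio inside and beside the gene had a Spearman correlation of 0.63. It is given as a description, since all points come from the same 2 samples. IMMP2L had a flank ratio of 2.90, LSAMP 3.10 and CSMD3 2.17, while CNTN5 with 1.41, MACROD2 with 0.871 and PTPRN2 with 0.938 differed more from their flanks. The Romidepsin density of the genes followed that of their flanks (Spearman 0.77) more closely than the abiraterone density did (0.37), and the abiraterone and Romidepsin densities of a gene had a correlation of 0.09. Between gene length and the ratio the correlation was 0.01. Whole chromosomes differed as well. Outside the gene in question the ratio was 1.72 on chromosome 3, which carries FHIT, CNTN4, MAGI1, LSAMP and ROBO2, and 0.634 on chromosome 20, which carries MACROD2. Against its own chromosome MACROD2 was 0.531 and no longer past 2-fold, LSAMP was 1.34, ROBO2 1.61 and SGCZ 1.86, whereas CNTN5, IMMP2L, CTNNA3, CDH12, CSMD3 and PRKG1 stayed past it with 2.11 to 3.69. PTPRN2, on a chromosome with a ratio of 1.35, moved the other way to 0.294. The part that flanks and chromosomes had in the values of the genes was not tested. Counts against flanks and chromosomes were made for the 40 genes alone, so they are not read as a trait of these genes.

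**Figure D2:**
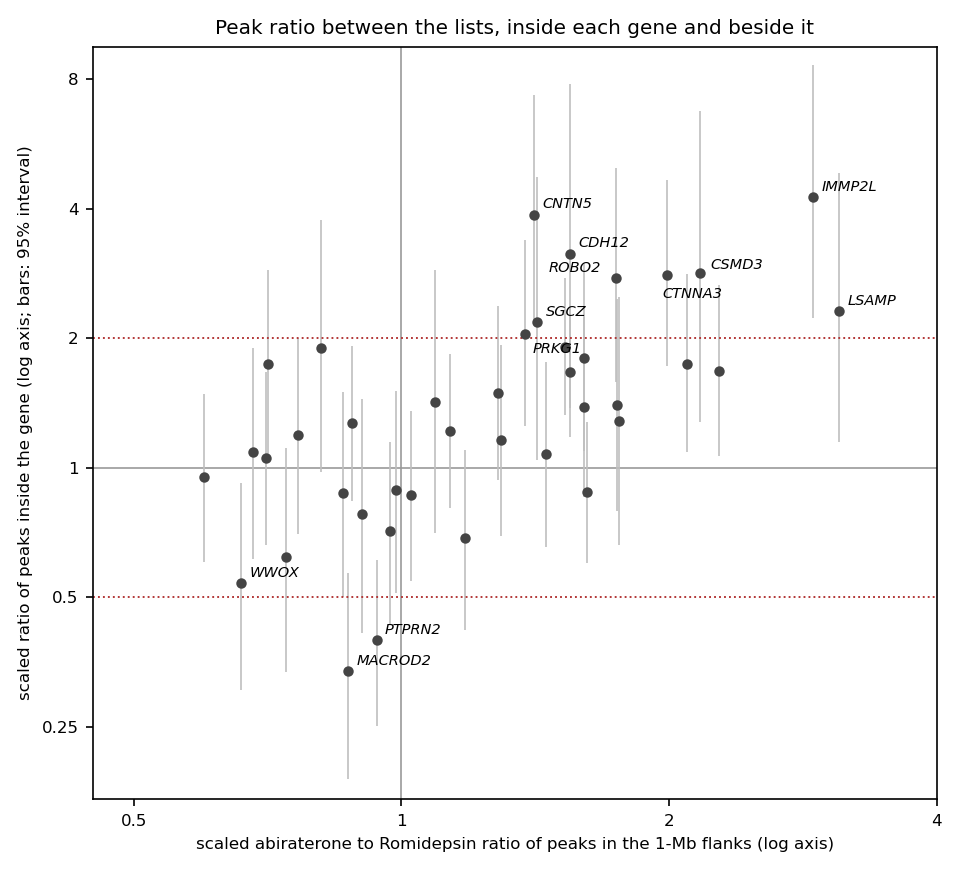
Scaled abiraterone to Romidepsin ratio of peak counts inside each of the 40 genes (y axis) against the same ratio in the 1 Mb on either side (x axis), both on log axes. Grey bars are 95% binomial intervals, dotted lines mark 2-fold, and the 11 genes past 2-fold and WWOX are named. Most points lie at the lower left and upper right, with 31 of 40 genes on the same side of 1 as their flanks.

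Density inside the gene was above that of its flanks for 18 of 40 genes under abiraterone and for 14 of 40 under Romidepsin, with median flank densities of 24.8 and 25.2 per Mb. No such count was made for the other long genes, so it is not read as a trait of the 40.

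Along the genes the counts of peaks varied slightly more than for peaks that fall independently. The variance of the counts in 50-kb windows divided by their mean, which is 1 for peaks that fall independently and larger where they gather, had a median of 1.15 under abiraterone and 1.18 under Romidepsin, over the genes with at least 10 peaks (40 and 39). In the other long genes the medians were 1.17 and 1.07. A value above 1 was found in 30 of 40 and 28 of 39 genes, against 133 of 213 and 128 of 218 other long genes. The first, middle and last parts of the genes, cut at equal lengths in the direction of transcription, held 31.0%, 33.4% and 35.6% of the abiraterone peaks and 30.9%, 33.0% and 36.2% of the Romidepsin peaks. A neighbour within 10 kb was present for 51.1% of the abiraterone peaks and 52.3% of the Romidepsin peaks, against 54.7% and 55.6% in the other long genes.

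A few genes lay farther above 1. A value above 2 was found in 1 of 40 genes under abiraterone and 2 of 39 under Romidepsin. Among the other long genes it was found in 15 of 213 and 10 of 218. With peaks closer than 1 kb merged, the counts among the 40 genes were 0 and 1. LSAMP had the highest value under abiraterone, 2.04, and a value of 1.84 under Romidepsin, next after CSMD2 and PTPRN2. Its Romidepsin peaks numbered 2, 1 and 11 in the first, middle and last part of the gene and left the first 203 kb empty, while its abiraterone peaks numbered 7, 9 and 8. CSMD2 had the highest value under Romidepsin, 2.83, with 12 of its 31 peaks within 100 kb, and PTPRN2 followed with 2.07 and 17 peaks within 100 kb. Under abiraterone CTNNA3 (1.88) and DLG2 (1.80) came after LSAMP. In CTNNA3 26 of 54 abiraterone peaks lay in the middle part, and in DLG2 38 of 78 lay in the last part. CNTN5 had a like tilt, with 5, 15 and 26 abiraterone peaks from the first to the last part.

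**Figure D3:**
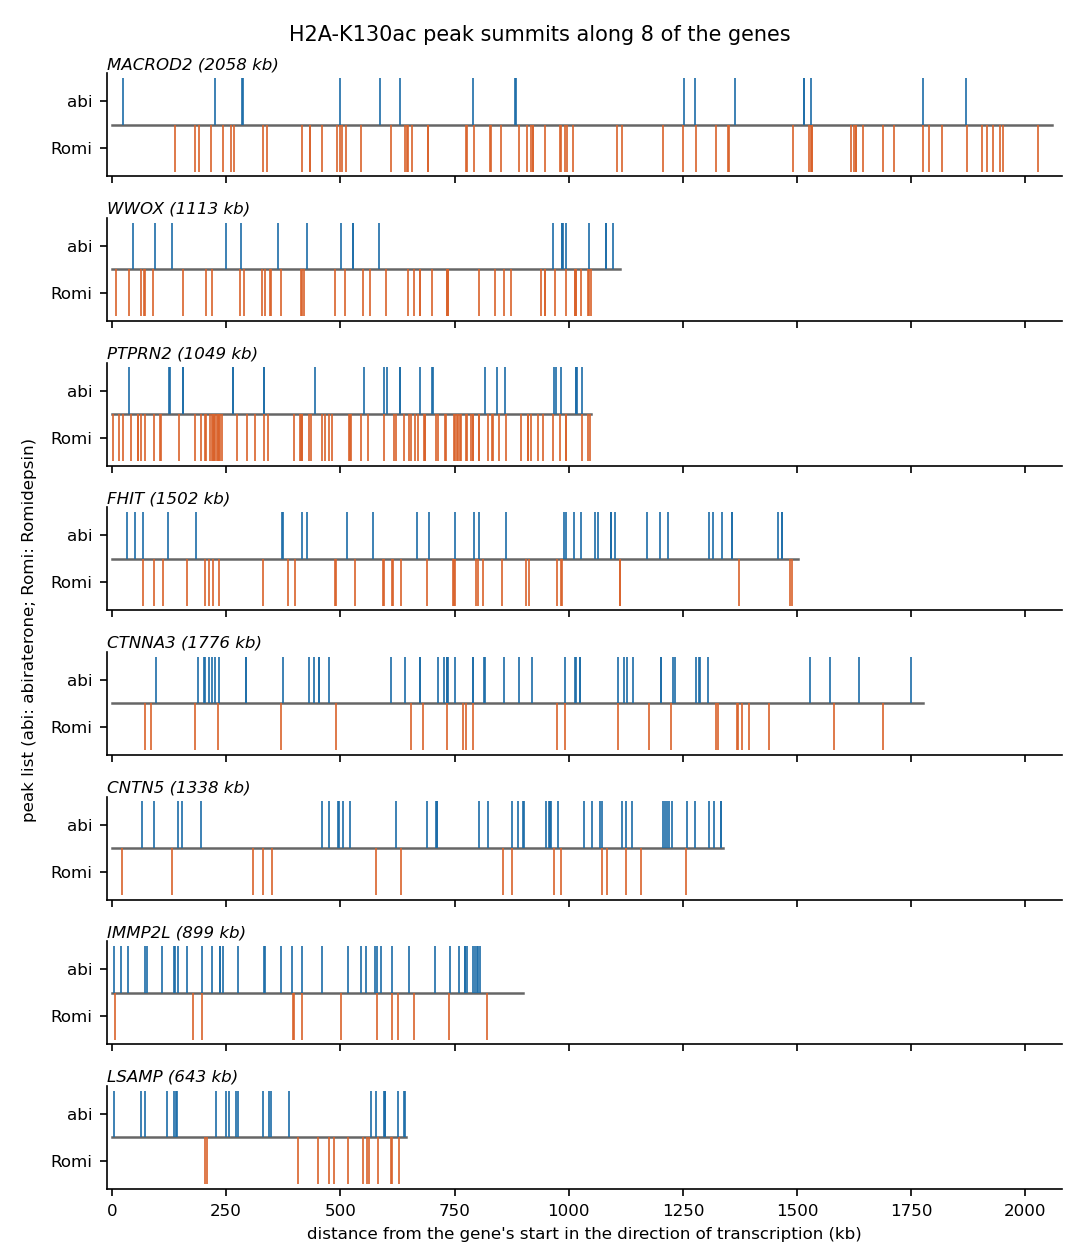
Summits of H2A-K130ac peaks along 8 of the genes, by distance from the start of the gene in the direction of transcription (x axis, kb). Lines above the gene are abiraterone peaks and lines below are Romidepsin peaks. MACROD2 and WWOX show stretches of 368 and 380 kb with no abiraterone peak and 15 and 17 Romidepsin peaks, and CNTN5 and IMMP2L hold more abiraterone than Romidepsin peaks along their length.

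In each gene the longest stretch without a peak in one list held at least 1 peak of the other, except for the longest stretch of PTPRN2 without a Romidepsin peak (56.5 kb), which held none. WWOX had no abiraterone peak over 380 kb, between 52.5% and 86.6% of its length, and this stretch held 17 Romidepsin peaks. MACROD2 had none over 368 kb, between 43.0% and 60.9%, where 15 Romidepsin peaks lay. LRP1B had none over 333 kb with 12 Romidepsin peaks inside, and CSMD1 none over 345 kb with 7 inside. EYS had the longest such stretch, 451 kb of its first part without an abiraterone peak, with 5 Romidepsin peaks inside. In the other direction EYS had no Romidepsin peak over 355 kb, with 4 abiraterone peaks inside. PTPRD had none over 311 kb with 2 inside, ROBO2 none over 301 kb with 5, CSMD1 none over 299.9 kb with 4 and CSMD3 none over 295 kb with 4. FHIT had no Romidepsin peak over 260 kb, between 74.1% and 91.4%, with 8 abiraterone peaks there, and in MAGI2 246 kb without a Romidepsin peak held 9 abiraterone peaks. With the lists joined, the longest stretch without any peak was 205 kb in PTPRD, between 4.65% and 13.5% of the gene, followed by 195 kb in CDH12 and 181 kb in CSMD1. It was 96.1 kb in FHIT and 67.2 kb in WWOX.

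**Figure D4:**
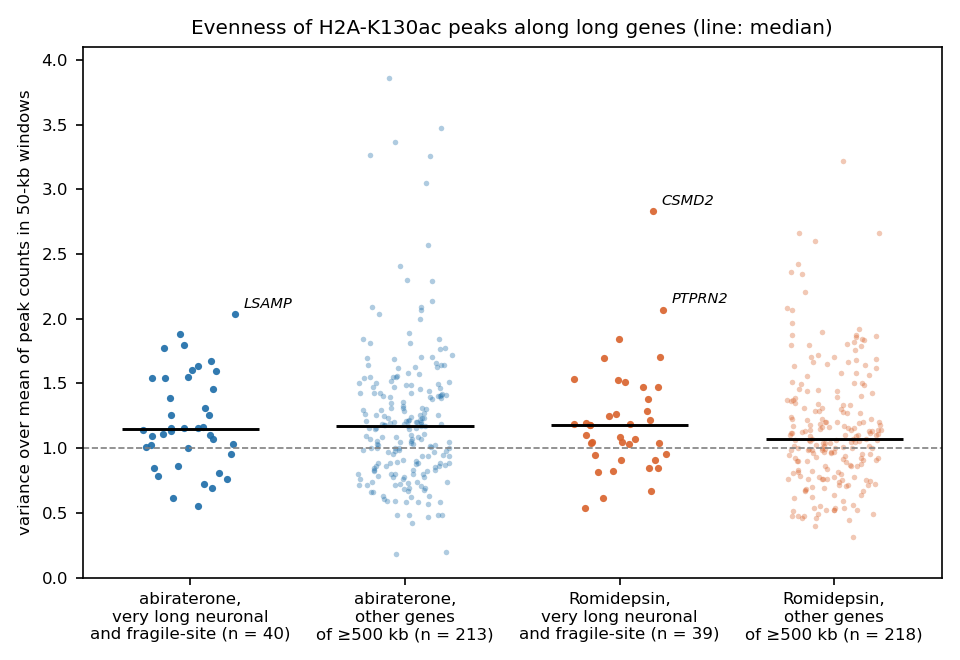
Variance over mean of peak counts in 50-kb windows (y axis) for the 40 genes and for the other genes of at least 500 kb, with at least 10 peaks, in each list. Each point is a gene, the black lines are medians (1.15, 1.17, 1.18 and 1.07 from left to right) and the dashed line is 1. LSAMP, CSMD2 and PTPRN2 are the genes above 2 among the 40, beside 15 (abiraterone) and 10 (Romidepsin) of the other long genes.

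The peaks in the genes were of the strength of their lists. The median fold over the control was 2.83 under abiraterone and 2.61 under Romidepsin, against 2.83 and 2.61 for the whole lists. A −log10 q of at least 2 was reached by 336 abiraterone peaks (24.3%, interval 22.1 to 26.6), against 24.9% of the list, and by 37 Romidepsin peaks (2.47%, interval 1.75 to 3.39), against 2.73%. All 40 genes had at least 1 such abiraterone peak, and 18 had no such Romidepsin peak. For other genes this was not counted, so the contrast is read only as that between the shares of the lists. The peak of highest fold was an abiraterone peak in intron 1 of RBFOX1 (chr16:6156470-6156689, fold 8.55, −log10 q 11.0), rank 34 of that list. The next were in EYS (fold 7.16), GPC5 and PTPRN2 (6.65 each) and CNTNAP2 (6.64). Under Romidepsin it was a peak in the last intron of NEGR1 (chr1:71958385-71958835, fold 6.97, −log10 q 5.29), rank 50, followed by CNTNAP2 (6.43), in an exon of a transcript nested in that gene, and by DAB1 and CNTN4 (6.10 each). None of these peaks overlapped a peak of the other list.

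Introns took 96.7% of the peaks in both lists. Of all peaks they took 39.6% and 37.9%, but these include peaks outside genes, so the contrast follows from the choice of peaks inside long genes. Of the intron-labelled peaks 23.4% under abiraterone and 21.1% under Romidepsin were in a first intron, below the 27.4% and 28.1% of the lists. Exon labels went to 9 abiraterone and 22 Romidepsin peaks (0.651% and 1.47%, against 2.70% and 3.30% of the lists). Of these, 6 and 16 named an exon of the gene itself. Exon and first-intron shares of the lists take in shorter genes, so the lower shares here are not read as a trait of the 40. LRP1B, a gene of 91 exons, held 5 of the Romidepsin exon peaks, at exons 24, 33, 37, 71 and 90, and 1 abiraterone peak at exon 71. At that exon the peaks of the lists lay side by side without overlap, at chr2:141128407-141128614 under abiraterone and chr2:141127991-141128359 under Romidepsin. In PTPRD both lists had a peak at exon 28, and these overlapped by 101 bases.

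The gene symbol column of the tables gives the nearest start site, and for genes this long it often gives another gene. Of the peaks inside the 40 genes, 403 under abiraterone (29.1%) and 504 under Romidepsin (33.7%) carried another symbol. The column named PTPRN2 for 1 of its 28 abiraterone peaks and 4 of its 95 Romidepsin peaks, and gave PTPRN2-AS1 to 49 and MIR595 to 29 of the latter. All 30 abiraterone peaks in ERBB4 and 33 of 34 Romidepsin peaks were given to others, mostly MIR548F2. In CTNNA3, LRRTM3, a synaptic gene that lies within it, took 43 and 21 peaks, and in IMMP2L, LRRN3, likewise nested, took 29 and 10. Conversely 430 abiraterone and 447 Romidepsin peaks with the symbol of one of the 40 lay outside its limits, 57 and 58 of them at LRRC4C.

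Sites with a peak in both lists were rare. Of the abiraterone peaks in the genes 42 (3.04%, interval 2.20 to 4.08) overlapped a Romidepsin peak, against 4.04% of that list. Likewise 42 Romidepsin peaks (2.81%, interval 2.03 to 3.78) overlapped an abiraterone peak, against 2.90%. The 42 sites lay in 22 genes, and 18 genes had none. Genes with and without a site were not counted among other long genes, so these numbers are not read as a trait. IMMP2L and NRXN3 had 4 sites each, CNTN4, DLG2 and MAGI2 had 3 each, and CTNNA3, DAB1, GPC6, LRRC4C, MACROD2, OPCML, PRKG1 and PTPRN2 had 2 each. Single sites were in AUTS2, CSMD1, CTNNA2, ERBB4, EYS, NRG3, PARD3B, PTPRD and WWOX. The abiraterone peak of highest fold at such a site was in intron 4 of NRXN3, where it lay at chr14:78922397-78923133 (fold 5.70) and a Romidepsin peak at chr14:78922409-78922899 (fold 4.35) had its summit 97 bases away. The Romidepsin peak of highest fold at such a site was in the last intron of DAB1, at chr1:57473508-57474127 (fold 5.96), beside an abiraterone peak of fold 2.82. At the 42 sites the median distance between summits was 157 bases, and at 0 of them did both peaks reach a −log10 q of 2.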

How the data were processed

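The authors aligned ChIP-seq reads with Bowtie and called peaks with MACS. The control is named in different ways, as input in the names of the deposited lists and as vehicle-treated cells in the study's methods, so the control behind each fold is uncertain. The methods also give a q limit equal to a −log10 q of 2, which 24.9% of the abiraterone peaks and 2.73% of the Romidepsin peaks in the deposited lists reached. The deposited lists give for each peak a score, its fold enrichment and its significance (−log10 of p and of q), as the peak caller of the authors wrote them, and annotated copies add the nearest start site, label and gene limits. The conservative and optimal lists were identical, and whether replicates were pooled is not given in the sources used here. The labels name hg38 and MACS2, but the last Romidepsin peak of chromosome 1 ends at base 249191832, beyond the end of that chromosome in hg38, so positions were taken as hg19. The first peak of each list has no annotation.

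A peak was counted in a gene when its summit lay between the lowest geneStart and highest geneEnd of that gene. Density intervals are exact Poisson, shares and count ratios exact Clopper-Pearson, at 95%. A gene needed 20 peaks for a ratio call and 10 for the 50-kb windows, and flanks were 1 Mb a side. With 1 sample per treatment no p-value was computed. Counting steps were tested on simulated data. The members, the role groups and the lists of compared genes were chosen with earlier results of these data known. Every member is given, with details for the extremes of density, ratio and clustering, for shared sites, for the peaks of highest fold and for start sites. Exons of LRP1B and PTPRD, the longest empty stretches and the genes nearest to peaks were picked after their values were seen. Promoter sequences are from RefSeq GRCh38.p14, and no position was converted between builds. Python 3.11.15, pandas 2.3.3, numpy 2.4.6 and scipy 1.17.1 were used. Alternatives were other thresholds on q and fold, other background levels, scalings, flanks, windows and overlap rules.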

Additional observations from a re-analysis of the deposited data

How the results depend on the processing

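Of 53 alternative values, 34 stayed within the limits set for them and 19 moved. With peaks of −log10 q of at least 2 the density of the genes was 6.12 per Mb under abiraterone and 0.674 under Romidepsin, and with the 5000 peaks of highest fold 1.84 and 1.18, or 1.07 and 0.754 and 1.097 and 0.700 times the intronic density made the same way. Counting all peaks in gene limits gave background densities of 26.7 and 36.0 per Mb, and all peaks over the span of the chromosomes 22.9 and 30.9, so the abiraterone density of the genes, 25.2, was above the intronic level and below that of all peaks in gene limits. The median variance over mean went below 1 for abiraterone with peaks closer than 1 kb merged (0.933) and for Romidepsin in 100-kb windows (0.969), and flanks of 500 kb left 21 and 18 genes denser than their flanks, from 18 and 14. At least 1.5 times the intronic density was reached by 5 genes under abiraterone and 3 under Romidepsin. The other genes of at least 500 kb, with densities up to 66.9 and 84.9 per Mb, were not counted at this level. Sites shared by at least 50% of both peaks were 1.52% and 1.404% of the peaks, and those with summits at most 1 kb apart 6.22% and 5.48%. Scaled by the chromosome, 6 genes were past 2-fold for abiraterone and 1 for Romidepsin. Past 1.5-fold were 16 and 4, against 26.4% and 24.8% of all genes with at least 20 peaks. With −log10 q of at least 2 the counts past 2-fold were 0 and 0, since 1 gene alone kept 20 peaks.

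The lists give no read depth, so a difference between them in the number or strength of peaks cannot be told apart from a difference in sequencing. Gene limits come from transcripts nearest to a peak and can miss a longer transcript. No paired analysis was possible because no replicate of either treatment was at hand.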

Other observations

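Another 20 very long neuronal genes were counted in the same way. Of these, 4 were at least 2-fold denser in the abiraterone list after scaling, against 14.7% of all tested genes and 20.2% of the tested genes of at least 500 kb outside the 40, which include these 20. NAALADL2, a peptidase-like gene, had the highest ratio, 7.34, with 49 abiraterone and 9 Romidepsin peaks. NLGN1, a postsynaptic partner of neurexins, had a ratio of 3.82, GRM7, a glutamate receptor, 2.30, and CDH18, a cadherin, 2.17. NAALADL2, NLGN1 and GRM7 lie on chromosome 3, where the ratio outside each of the 40 genes it carries was 1.72. Ratios of these genes against their chromosome were not computed. KCNIP4, a potassium channel interacting protein, was the gene past 2-fold in the Romidepsin direction (12.7% of all tested genes were), with 10 abiraterone and 34 Romidepsin peaks. The median ratio of the 20 was 1.12, and 12 lay above 1. DMD, the dystrophin gene, had 18 abiraterone and 44 Romidepsin peaks, 8.11 and 19.8 per Mb.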
